A study of Homo sapiens with 16 samples.

Results

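The genes described here are those for subunits and assembly factors of complex I, NADH:ubiquinone oxidoreductase of the mitochondrial respiratory chain. They were picked by symbol, as NDUFA, NDUFB, NDUFC, NDUFS, NDUFV or NDUFAF followed by a number, together with NDUFAB1, and 45 of the 33121 entries of the count table met this rule. Of the 45, 37 are counted here as subunits, 7 are assembly factors (NDUFAF1 to NDUFAF7), and NDUFA4 is kept apart because that protein was later assigned to complex IV. RNA was measured in 16 libraries of the HAP1 cell line, human cells with a near-haploid genome that descend from a chronic myeloid leukaemia line. The libraries form 4 groups of 4: cells labelled SLC30A10_delta, which carry a deletion in the gene for the manganese exporter SLC30A10, their SLC30A10+/+ controls, cells with a deletion in a second gene, and the +/+ controls for that second gene, called the second control set. Both control sets carry one cell line identifier and each deletion line its own, and the labels do not give the number of clones behind either deletion, so a clone and its deletion cannot be told apart. All cells were kept in the same serum-supplemented medium, with no metal or other treatment given in the labels.

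Complex I takes electrons from NADH and passes them through iron-sulfur clusters to ubiquinone while protons are pumped across the inner mitochondrial membrane. The peripheral arm holds the N module, where NADH is oxidised, and the Q module, where ubiquinone is reduced, and the membrane arm is built from modules named after the mitochondrially encoded subunits ND1, ND2, ND4 and ND5. Assembly factors help to build these modules, insert cofactors or modify subunits and are absent from the finished enzyme. The mitochondrially encoded subunits were not analysed here.

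Library totals ran from 16058856 to 16648151 counts, and 3 counts in a library correspond to 0.180 to 0.187 per 1000000 of its unscaled total. CPM are counts per 1000000 after libraries were scaled to each other. Between the 4 libraries of a group, the coefficient of variation of a tested gene in the list had a median between 4.08% and 5.20%. SLC30A10 itself had 3 to 11 counts in its knockout and 6 to 9 in its controls, so its counts do not tell these groups apart. Among 13 markers of blood, liver, nerve and muscle cells, 9 stayed at 10 counts or fewer in every library and HBA1 was the highest, with 39 to 166 counts. The labels do not say that the 4 libraries of a group came from separate cultures, so p-values measure the spread between these libraries, which may be technical.

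Of the 45 genes, 43 passed the filter on low counts and were tested. A gene is said to be called, to rise or to fall where the p-value of edgeR's quasi-likelihood test, adjusted over all tested genes, was under 0.05, and fold changes are log2 values ± SE. NDUFA3 had 0 to 2 counts in every library, and its numbered further entries were at 0. NDUFA6 had 0 or 1 count, but a further entry of the same symbol held 1040 to 1231 counts in each library and was not called in the SLC30A10 knockout (log2 fold change -0.04 ± 0.05, edgeR quasi-likelihood test, adjusted p = 0.507) or the second knockout (-0.05 ± 0.05, adjusted p = 0.621). Levels per kilobase of the principal transcript spanned a wide range. NDUFS5, a small accessory subunit of the ND2 module, was the highest at a mean of 222 CPM per kb over all libraries, followed by NDUFB9 of the ND5 module at 188 CPM per kb and NDUFB10 of the ND4 module at 156 CPM per kb. The highest of the Q module was NDUFS8, which carries iron-sulfur clusters, at 116 CPM per kb, and of the N module NDUFA12 at 102 CPM per kb. NDUFA13 led the ND1 module with 79.0 CPM per kb. Assembly factors were lower than these leading subunits, from NDUFAF5, which hydroxylates NDUFS7, at 3.90 CPM per kb to NDUFAF2, a late-acting factor, at 40.3 CPM per kb. Several other subunits lay within that range, among them NDUFB6 (31.9), NDUFA10 (24.7), NDUFS1 (11.3) and NDUFA9 (9.24 CPM per kb). These levels rest on 1 annotated transcript per gene, the longest of those ranked best as principal, and change with that choice.

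The promoters of the group were read for 3 words of transcription factors known to act on nuclear respiratory genes, in windows of 300 bases (250 before to 50 after a RefSeq start, assembly GRCh38.p14, both strands). Windows were found for 38 of the 45 genes, 48 in all. The YY1 word AAGATGGC stood in 7 of the 48 windows (14.6%), against 2.89% of all 35116 windows. The palindromic word of the factor NRF1, capitals in the NDUFB4 stretch below, stood in 3 (6.25%, against 1.24%), and the ETS word CCGGAAG, bound by GABP, in 6 (12.5%, against 10.3%). The 7 YY1 words are shown because all lay on the gene's strand and began 11 to 26 bases into the transcript. The word holds the letters ATG of a start codon. Whether these words are bound by YY1 or mark the start of translation was not tested. They are in capitals below.
NDUFA3: ccgcggagacaAAGATGGCtgcgagtaagt
NDUFA6: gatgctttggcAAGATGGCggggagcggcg
NDUFA7: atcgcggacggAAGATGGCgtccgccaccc
NDUFA9: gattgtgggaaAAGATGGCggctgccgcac
NDUFB8: tgaagaaggtgAAGATGGCggtggccaggg
NDUFS4: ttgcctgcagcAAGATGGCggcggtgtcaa
NDUFS7: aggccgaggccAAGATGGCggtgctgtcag

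These stretches lie at chr19:54102865-54102894 (+), chr22:42090729-42090758 (-), chr19:8321343-8321372 (-), chr12:4649113-4649142 (+), chr10:100529836-100529865 (-), chr5:53560649-53560678 (+) and chr19:1383913-1383942 (+), in that order. The NRF1 word is shown where it lies upstream of NDUFB4, an ND4 module subunit, in chr3:120596086-120596285 (+), and the ETS word upstream of NDUFAF4, the member that differed most between the control sets, in chr6:96897892-96898141 (-). Neither stretch overlaps an annotated exon.
NDUFB4: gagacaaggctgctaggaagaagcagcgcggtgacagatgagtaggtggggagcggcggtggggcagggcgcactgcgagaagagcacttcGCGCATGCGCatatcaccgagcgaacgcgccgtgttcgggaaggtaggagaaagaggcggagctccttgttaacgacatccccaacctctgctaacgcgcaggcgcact
NDUFAF4: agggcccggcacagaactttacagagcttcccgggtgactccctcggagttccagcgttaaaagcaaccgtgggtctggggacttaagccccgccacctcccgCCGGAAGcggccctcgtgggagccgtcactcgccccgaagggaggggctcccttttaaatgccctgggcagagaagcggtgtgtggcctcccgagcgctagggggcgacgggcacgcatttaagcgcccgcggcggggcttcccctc

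The first comparison asked what the loss of SLC30A10 goes with in these genes. Of the 43 tested, 18 were called, 9 higher and 9 lower, where 41.4% of all 15569 tested genes were called (21.2% higher and 20.2% lower), so the share is near the background. For genes whose mean count was 50 or more, the background was 44.6%. In 15 of the 43 the 4 knockout and 4 control libraries did not overlap, against 38.3% of all genes. The median log2 fold change was 0.0035 for the 43 and -0.0048 for all genes. Most changes were small: 37 of the 43 were under 0.25 in absolute log2 fold change, and of the 43 only NDUFA5 passed a fold of 1.5. In RNA of whole cultures, a change in every cell and a change in a share of the cells cannot be told apart.

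**Figure D1:**
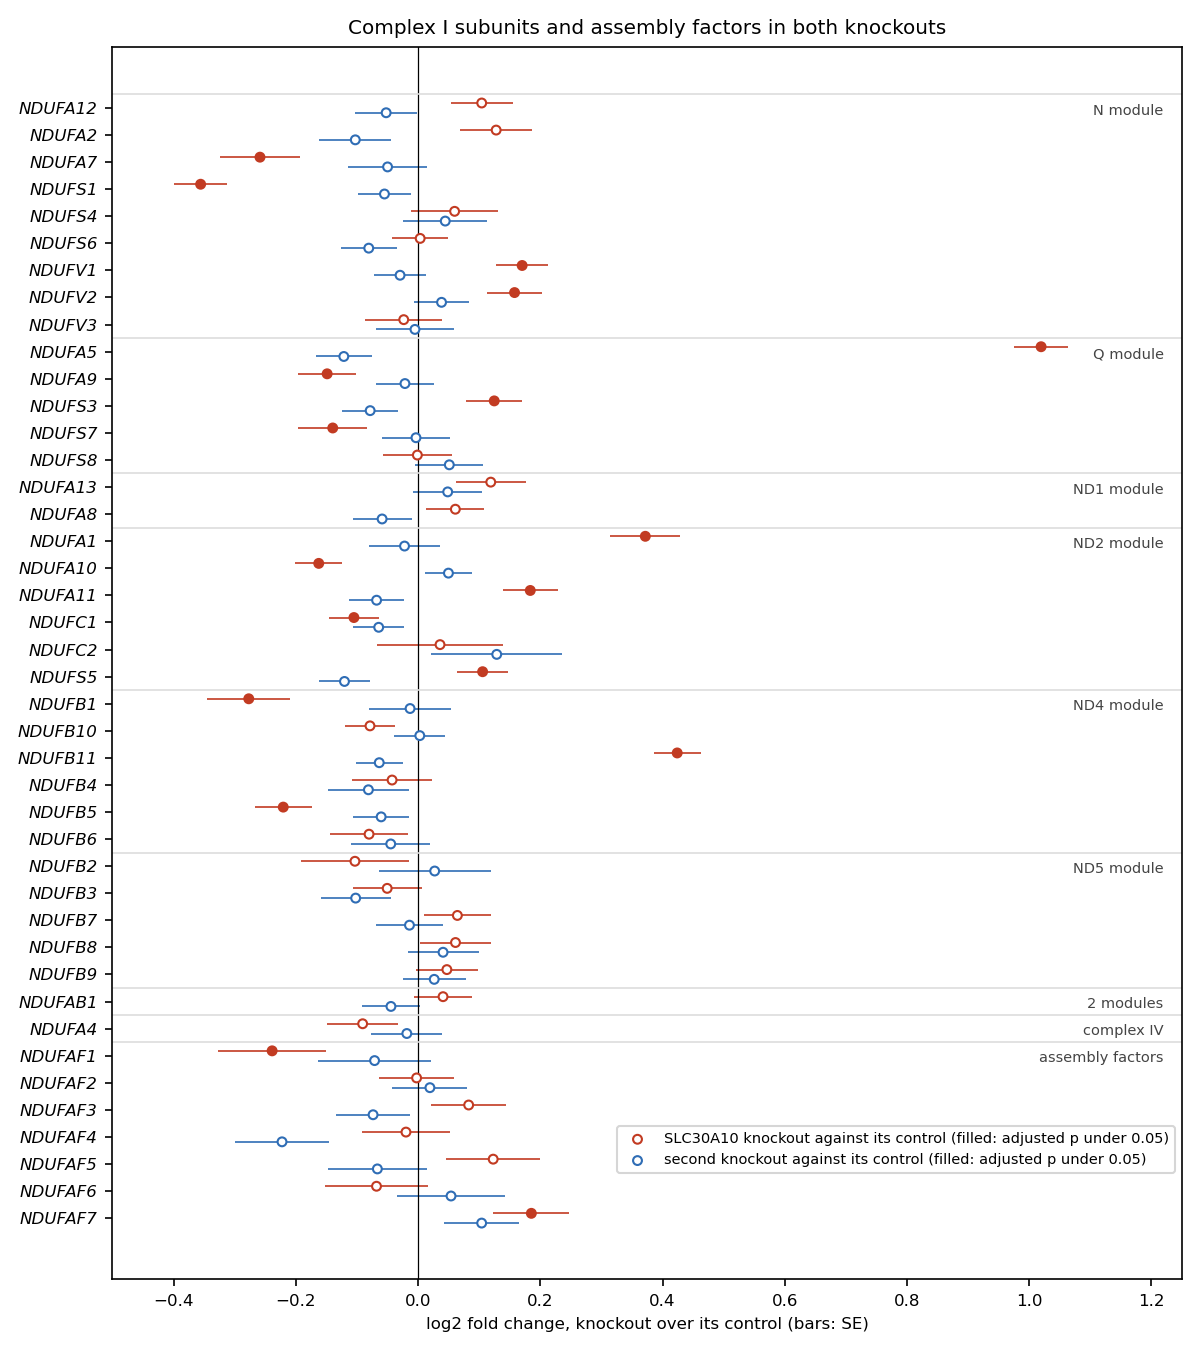
Log2 fold change (horizontal axis, bars are SE) of 42 of the tested genes, by module, in the SLC30A10 knockout (red) and the second knockout (blue), each against its own 4 controls; filled points have an adjusted p under 0.05. NDUFA5 stands apart at 1.02 in the SLC30A10 knockout, 18 red points are filled and no blue point is.

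NDUFA5, an accessory subunit of the Q module, had 177, 185, 174 and 179.8 CPM in the SLC30A10 knockout and 92.6, 86.4, 92.1 and 81.9 CPM in its controls. Every knockout library was far above every control library, and the second control set (91.0, 83.2, 91.2 and 90.2 CPM) lay at the level of the first. The rise was 2.03-fold, a log2 fold change of 1.02 ± 0.04 (edgeR quasi-likelihood test, adjusted p = 5.2e-16). The other Q module genes moved little. NDUFS3, a core subunit, rose by 0.12 ± 0.05 (edgeR quasi-likelihood test, adjusted p = 0.0301). NDUFA9 fell, with a log2 fold change of -0.15 ± 0.05 (edgeR quasi-likelihood test, adjusted p = 0.0126), as did NDUFS7, which carries an iron-sulfur cluster, with -0.14 ± 0.06 (edgeR quasi-likelihood test, adjusted p = 0.0494). NDUFS8 (-0.0011) was not called.

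In the N module, NDUFS1, the largest core subunit and a carrier of iron-sulfur clusters, fell. It had 115, 118, 113 and 116 CPM in the knockout and 149.6, 149, 147 and 146 CPM in the controls, with no overlap, for a log2 fold change of -0.36 ± 0.04 (edgeR quasi-likelihood test, adjusted p = 2.2e-07). NDUFA7, an accessory subunit, fell by a log2 fold change of 0.26 from 49.5 ± 1.45 CPM to 41.3 ± 2.83 CPM (SD, n = 4; edgeR quasi-likelihood test, adjusted p = 0.00218). NDUFV1, which binds NADH and FMN, rose from 216 ± 6.97 CPM to 243 ± 11.8 CPM, a log2 fold change of 0.17 ± 0.04 (edgeR quasi-likelihood test, adjusted p = 0.00205). Its partner NDUFV2, an iron-sulfur protein, rose from 89.1 ± 2.64 CPM to 99.4 ± 3.75 CPM, by 0.16 ± 0.04 (edgeR quasi-likelihood test, adjusted p = 0.00574). The remaining 5 tested genes of the module were not called.

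In the ND2 module 5 of 6 tested genes were called, where 41.4% of all genes were, and 2 of the 5 (NDUFS5 and NDUFC1) lost the call in most fits with 1 library left out. NDUFA1, an accessory subunit encoded on the X chromosome, had 71.9, 63.1, 61.4 and 64.9 CPM in the knockout and 49.6, 50.3, 52.4 and 49.6 CPM in the controls. All 4 knockout libraries were higher, for a log2 fold change of 0.37 ± 0.06 (edgeR quasi-likelihood test, adjusted p = 8.3e-06). NDUFA11 rose from 57.4 ± 1.93 CPM to 65.2 ± 0.850 CPM, by 0.18 ± 0.05 (edgeR quasi-likelihood test, adjusted p = 0.00189). NDUFS5 rose by 0.11 ± 0.04 (edgeR quasi-likelihood test, adjusted p = 0.0437). NDUFA10 went from 125 ± 4.45 CPM to 112 ± 1.57 CPM, a log2 fold change of -0.16 ± 0.04 (edgeR quasi-likelihood test, adjusted p = 0.00130), and NDUFC1 fell, with -0.10 ± 0.04 (edgeR quasi-likelihood test, adjusted p = 0.0437).

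In the ND4 module NDUFB11, also X-linked, had 124, 122, 128 and 123 CPM in the knockout and 89.1, 90.3, 98.5 and 92.9 CPM in the controls. The lowest knockout library was above the highest control library, and the log2 fold change was 0.42 ± 0.04 (edgeR quasi-likelihood test, adjusted p = 1.2e-09). Genes of the same module moved the other way. NDUFB5 had 88.6, 93.2, 92.5 and 89.7 CPM in the knockout against 108, 103, 108 and 106 CPM in the controls, with no overlap, and a log2 fold change of -0.22 ± 0.05 (edgeR quasi-likelihood test, adjusted p = 0.000409). NDUFB1 fell from 31.1 ± 1.70 CPM to 25.7 ± 1.93 CPM, with a log2 fold change of -0.28 ± 0.07 (edgeR quasi-likelihood test, adjusted p = 0.00183). None of the 2 tested genes of the ND1 module, the 5 of the ND5 module, NDUFAB1, which is the mitochondrial acyl carrier protein, or NDUFA4 was called, and their log2 fold changes ran from -0.10 (NDUFB2) to 0.12 (NDUFA13).

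**Figure D2:**
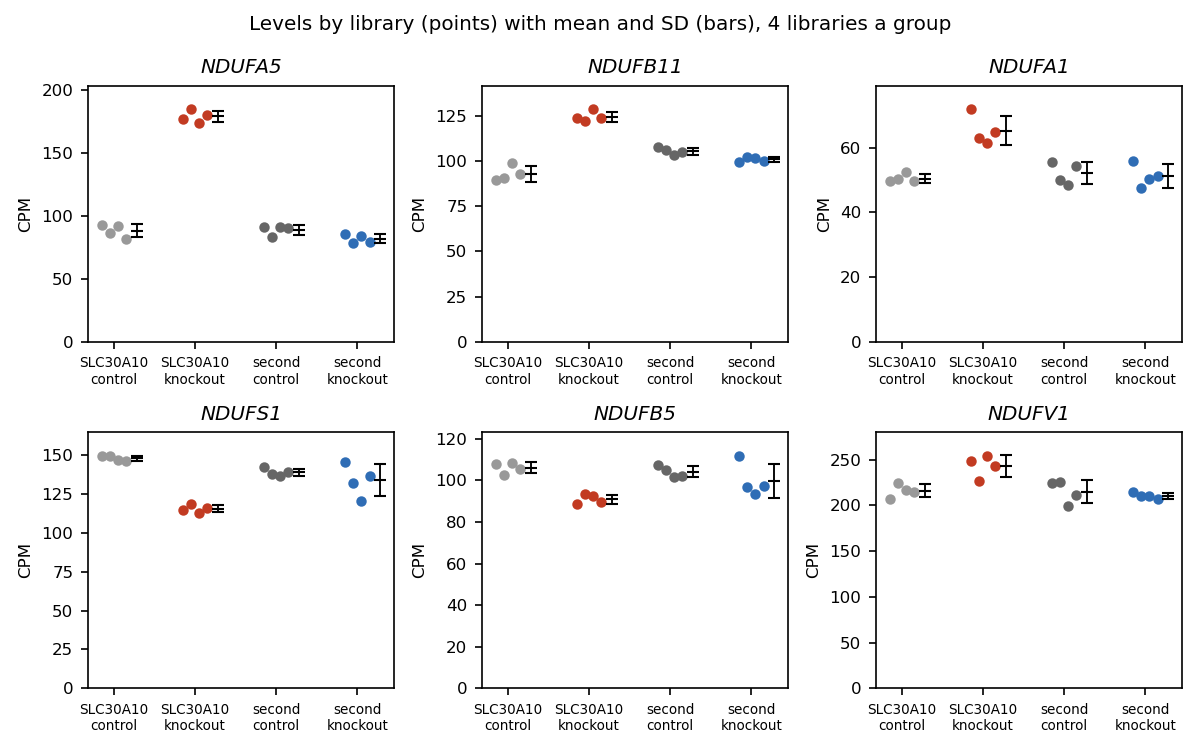
CPM (vertical axis, from 0) of 6 genes in each of the 16 libraries, with mean and SD beside the 4 points of a group. NDUFA5, NDUFB11, NDUFA1 and NDUFV1 are higher and NDUFS1 and NDUFB5 lower in all 4 SLC30A10 knockout libraries than in their controls.

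Among the assembly factors, NDUFAF7, a methyltransferase, rose by 0.19 ± 0.06 (edgeR quasi-likelihood test, adjusted p = 0.0188). NDUFAF1, which belongs to the membrane arm assembly complex called MCIA, had 14.4, 14.5, 14.7 and 13.6 CPM in the knockout and 15.1, 17.4, 20.1 and 14.8 CPM in the controls, with a log2 fold change of -0.24 ± 0.09 (edgeR quasi-likelihood test, adjusted p = 0.0312). Its highest control library, replicate 3, sets much of the gap: without it the log2 fold change was -0.14 and the adjusted p 0.176. The other 5 factors were not called.

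Of the 18 calls, 11 held when any 1 of the 8 libraries was left out, among them those of NDUFA5, NDUFB11, NDUFA1, NDUFS1, NDUFB1, NDUFA7 and NDUFB5. NDUFA9 lost its call without SLC30A10 control replicate 3 (adjusted p = 0.062) or knockout replicate 2 (0.057), and NDUFAF7 without control replicate 2 (0.061) or 3 (0.075) or knockout replicate 2 (0.096). NDUFAF1 and NDUFS3 lost theirs in 5 of 8 cases, NDUFS5 and NDUFS7 in 6 and NDUFC1 in 7, with adjusted p-values up to 0.197. In all, 12 to 15 genes were called with 1 library left out. The even split of 9 higher and 9 lower became 10 and 5 without control replicate 3, where NDUFA2 and NDUFB7 were newly called higher. It was 8 and 5 without knockout replicate 2, where NDUFA13 was newly called higher, and 6 and 6 without control replicate 2. Over all genes these fits called 3117 higher and 2968 lower, 3060 and 2865, and 2926 and 2847, in that order. Against both control sets pooled the split was 13 and 7, where 42.8% of all genes were called (21.9% higher and 21.0% lower). Other settings also ended some calls: NDUFS5 with each of the 3 other scalings tried (adjusted p = 0.0552 to 0.0635), with numbered copies summed (0.0546), with no filter (0.0904) and with DESeq2 (0.0561), NDUFS3 with library totals alone (0.0502) or no filter (0.0569), NDUFC1 with no filter (0.123) and NDUFS7 with a minimum mean count of 50 (0.0521). Against both control sets pooled, NDUFA9 (0.131), NDUFAF1 (0.695) and NDUFAF7 (0.0781) were not called. Unless DESeq2 is named, these p-values come from edgeR's quasi-likelihood test.

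The neighbours of the called genes were read along the RefSeq gene order. NDUFA5 is at chr7:123536997-123601651, and the tested genes on both sides of it moved with it. The 7 tested genes from CADPS2 to POT1, a stretch of 2.61 Mb, were all called higher in the SLC30A10 knockout, with log2 fold changes from 0.73 (IQUB) to 2.64 (TMEM229A) and a median of 0.92. WASL, next to NDUFA5 and expressed at the same level (mean 111 CPM), had 0.92 ± 0.05, and POT1, a telomere protein with a mean of 58.9 CPM, 0.88 ± 0.06. The other 4 genes were low, from a mean of 0.892 CPM (IQUB) to 6.66 CPM (GPR37). Next to the stretch, FEZF1-AS1 (-0.83) and GRM8 (-0.43) were called lower, and beyond GRM8 ZNF800 (0.02) was not called. Farther out, beyond FEZF1-AS1, the low gene CPED1 (mean 0.824 CPM) was called higher, at 0.66 ± 0.24 (edgeR's test, adjusted p = 0.0284), while FEZF1 (-0.96) and AASS (-0.23) were called lower. In the second knockout the median of the same 7 genes was -0.005 and, of the 7, only TMEM229A was called (-2.08). The ends of the stretch were drawn after its values were seen, and over chromosome 7 as a whole the median was -0.0022 in the SLC30A10 knockout.

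**Figure D3:**
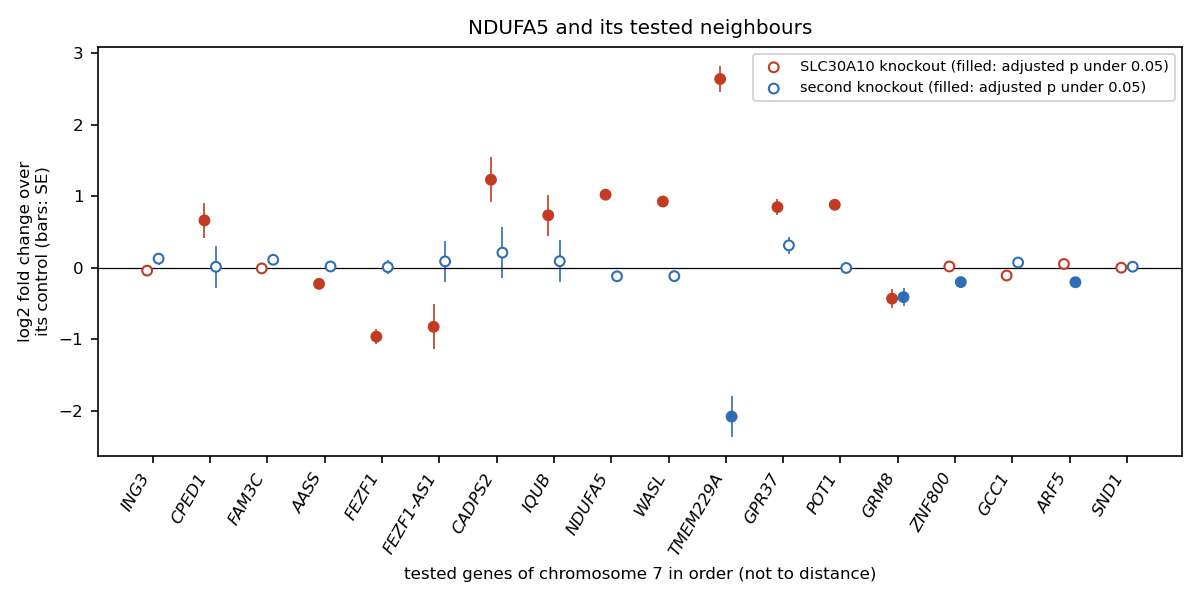
Log2 fold change (vertical axis, bars are SE) of NDUFA5 and the tested genes around it, in chromosomal order, in the SLC30A10 knockout (red) and the second knockout (blue); filled points have an adjusted p under 0.05. The 7 genes from CADPS2 to POT1 lie between 0.73 and 2.64 in red, and their neighbours on both sides lie at 0.02 or below next to the stretch.

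NDUFA1 (chrX:119871832-119876662) and NDUFB11 (chrX:47142216-47145491) lie on a chromosome where 69.7% of 495 tested genes were called higher in the SLC30A10 knockout, with a median log2 fold change of 0.36. Of the 10 nearest tested genes, 7 were called higher around NDUFA1 (median 0.34) and 9 around NDUFB11 (median 0.43). Their own changes of 0.37 and 0.42 were close in size to those medians. Each also shares exon sequence with a gene on the opposite strand, 44.5% of NDUFA1 with RNF113A (0.45 ± 0.08) and 44.9% of NDUFB11 with RBM10 (0.22 ± 0.04). The use of strand in counting is not given in the sources used here, so their reads may be shared. In all, 6 of the 45 genes share 20% or more of their exon bases with the opposite strand, and NDUFS7 shares 49.1%. Around NDUFS1, on chromosome 2, the 10 nearest tested genes had a median of 0.09, with 1 called higher and 2 lower. Around NDUFB1 the median was -0.17, with 3 of 10 called higher and 6 lower. Medians with the sign of the gene's own change also stood around NDUFA11 (0.20), NDUFV1 (0.13), NDUFV2 (0.09), NDUFS5 (0.06) and NDUFAF7 (0.03). The same held for NDUFC1 (-0.09), NDUFA7 (-0.03) and NDUFS7 (-0.03). The median had the other sign, as for NDUFS1, around NDUFA9 (0.13), NDUFA10 (0.13), NDUFB5 (0.04), NDUFAF1 (0.01) and NDUFS3 (-0.06).

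A wider list of 15 assembly factors without an NDUFAF symbol in the table had 4 called in the SLC30A10 knockout (26.7%, below the 41.4% of all genes). AIFM1, which drives import of complex I proteins together with CHCHD4 and is X-linked, rose by 0.38 ± 0.04 (edgeR quasi-likelihood test, adjusted p = 9.6e-09), and its 10 neighbours had a median of 0.37. ECSIT, an MCIA factor, rose by 0.15 ± 0.05 (adjusted p = 0.0104; 0.0589 without SLC30A10 knockout replicate 3). TIMMDC1 (-0.23 ± 0.04) and TMEM186 (-0.26 ± 0.09), which work with MCIA, fell, the latter with an adjusted p of 0.0726 or 0.0646 by the same edgeR test without control or knockout replicate 3, and of 0.382 against both control sets pooled. The log2 fold changes of TMEM126B (-0.06), ACAD9 (0.11) and COA1 (0.01) did not pass. Factors of this complex were thus called in both directions.

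Of 9 regulators of nuclear respiratory genes, 8 were tested, and 5 were lower in the SLC30A10 knockout, where 20.2% of all genes were. They were NRF1 (-0.21 ± 0.06), the GABP subunit gene GABPB1 (-0.24 ± 0.07), the coactivators PPARGC1B (-0.20 ± 0.07) and PPRC1 (-0.16 ± 0.05), and YY1 (-0.15 ± 0.04). Against both control sets pooled, PPARGC1B (0.09, adjusted p = 0.315) and PPRC1 (0.14, adjusted p = 0.0131) turned positive, since the second control set held less of both. PPRC1 had 145, 141, 142 and 146 CPM in the SLC30A10 knockout, 155, 158, 176 and 153 CPM in its controls and 93.2, 105, 114 and 113 CPM in the second control set. The controls alone also differed for 5 of the 8 regulators (62.5%, against 39.3% of all genes). SLC30A10 controls had more RNA of 4 of these genes than the second controls, and less of 1. PPARGC1B lost its call without 1 of 4 libraries (SLC30A10 control replicate 1 or 3, knockout replicate 1 or 2; adjusted p-values 0.0516 to 0.115) and PPRC1 without control replicate 3 (0.0623), by edgeR's test. The genes with a promoter word were called in both directions or not at all. Of the 5 tested genes with the YY1 word, NDUFA7, NDUFA9 and NDUFS7 fell and NDUFB8 (0.06) and NDUFS4 (0.06) were not called. Of the 6 with the ETS word, NDUFS1 fell, NDUFA1 and NDUFS3 rose, and NDUFA13, NDUFAF4 and NDUFB7 were not called, nor were the 3 with the NRF1 word (NDUFA8, NDUFAF5 and NDUFB4).

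In the second knockout none of the 43 genes was called, where 13.7% of all genes were (6.67% higher and 7.03% lower), and 14.3% of those with a mean of at least 50 counts. By edgeR's test 3 were under an unadjusted p of 0.05, against 4033 of the 15569 genes, and DESeq2 also called 0. Log2 fold changes ran from -0.22 to 0.13 with a median of -0.03, 30 of the 43 were negative, and all were under 0.25 in size. NDUFAF4, which acts with NDUFAF3 in building the Q module, was nearest to the threshold. It had 29.2, 24.5, 26.5 and 26.7 CPM in the second knockout and 29.4, 29.8, 31.3 and 34.1 CPM in its controls, with no overlap, as in 3 of the 43 genes and 16.3% of all genes, and a log2 fold change of -0.22 ± 0.08 (edgeR quasi-likelihood test, adjusted p = 0.0549). NDUFS5 followed, with -0.12 ± 0.04 (edgeR, adjusted p = 0.0556), and then NDUFA5, with -0.12 ± 0.05 (0.0847). The count depended on the libraries and settings. Without second control replicate 2, NDUFA5 and NDUFS5 were called, without second knockout replicate 1, NDUFAF4 and NDUFB4, and without second knockout replicate 3, NDUFS5. NDUFAF4 was also called with no filter on low counts (adjusted p = 0.0122) and in a fit of only the 8 libraries compared (0.0433), both by edgeR's test. Against both control sets pooled, 11 of the 43 genes were called, 9 of them lower, led by NDUFAF4 (-0.46), where 34.3% of all genes were called (17.5% higher and 16.8% lower).

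Of the wider assembly list, 2 of 15 were called in the second knockout (13.3%, near the 13.7% of all genes). NUBPL, which delivers iron-sulfur clusters to complex I, had 37.8, 36.8, 33.3 and 35.1 CPM in the knockout and 30.1, 29.7, 29.6 and 30.1 CPM in the controls. All knockout libraries were higher, for a log2 fold change of 0.26 ± 0.06 (edgeR quasi-likelihood test, adjusted p = 0.00242). TMEM70, a factor in the assembly of ATP synthase and complex I, had 19.6, 20.1, 21.0 and 22.4 CPM against 23.8, 23.3, 25.2 and 24.8 CPM. Its knockout libraries were all lower, and its log2 fold change was -0.23 ± 0.07 (edgeR quasi-likelihood test, adjusted p = 0.0237). The call was lost without second control replicate 3 or 4 or second knockout replicate 1 or 2, with adjusted p-values of 0.0696 to 0.0844. None of the 8 tested regulators was called, where 13.7% of all genes were. In edgeR's direct test of the difference between the knockout effects, 2 of these 8 passed (25%), where 31.3% of all genes did. Both had the more negative change in the SLC30A10 knockout. For the rest of the regulators, a fall particular to the SLC30A10 knockout is thus not shown.

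The difference between both knockout effects was tested directly. It passed for 11 of the 43 genes, 8 with the more positive change in the SLC30A10 knockout and 3 with the more negative, where 31.3% of all genes passed (16.7% more positive and 14.6% more negative) and 34.0% of those with a mean of at least 50 counts. Scaled by library totals alone the split was 7 and 5, where over all 15569 genes it was 2311 more positive and 2575 more negative. The genes with the more positive change were NDUFA5 (1.14 ± 0.06), NDUFB11 (0.49 ± 0.05), NDUFA1 (0.39 ± 0.08), NDUFA11 (0.25 ± 0.06), NDUFA2 (0.23 ± 0.08), NDUFS5 (0.23 ± 0.06), NDUFS3 (0.20 ± 0.06) and NDUFV1 (0.20 ± 0.06). Those with the more negative were NDUFS1 (-0.30 ± 0.06), NDUFB1 (-0.26 ± 0.10) and NDUFA10 (-0.21 ± 0.05). All 11 are subunits, which make up 35 of the 43 tested genes, and 31.4% of these subunits passed, near the 31.3% of all genes. Of the 6 tested genes of the ND2 module 4 passed. With 1 of the 16 libraries left out, NDUFA2 lost the call in 10 cases and NDUFB1 in 8, and NDUFS3 without second knockout replicate 2 or SLC30A10 knockout replicate 1, with adjusted p-values of edgeR's test up to 0.0975. NDUFA2 also lost it with library totals alone (0.0503) and with no filter (0.0522). For NDUFA7, NDUFB5, NDUFV2, NDUFA9, NDUFS7, NDUFC1, NDUFAF1 and NDUFAF7, which passed in the SLC30A10 knockout, the difference from the second knockout did not pass. The effects are thus not shown to differ for these genes.

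The labels give both control sets 1 cell line identifier, and whether both sets were grown or sequenced together is not given in the sources used here. The 4 libraries of the SLC30A10 control set and the 4 of the second control set differed for 12 of the 43 genes, where 39.3% of all genes differed, and 44.7% of those with a mean of at least 50 counts. The SLC30A10 control set was higher for 10 of them and lower for 2, where 18.5% of all genes were higher and 20.8% lower. In 11 of the 43 the libraries of the control sets did not overlap, against 36.3% of all genes. Of the 7 tested NDUFAF genes 4 were higher and none lower. NDUFAF4 had 41.9, 39.8, 51.0 and 39.7 CPM in the SLC30A10 control set and 29.4, 29.8, 31.3 and 34.1 CPM in the second, a log2 difference of 0.47 ± 0.07 (edgeR quasi-likelihood test, adjusted p = 2.1e-05). NDUFAF1 (0.39 ± 0.09), NDUFAF6 (0.33 ± 0.09), which acts early in assembly, and NDUFAF5 (0.24 ± 0.08) were also higher. Together with the wider list, 12 of 22 assembly factors were higher and 1, NUBPL, lower, with a median log2 difference of 0.19. Whether the calls of the wider list held with 1 library left out was not checked for the control sets. Among 35 tested subunits 6 were higher and 2 lower, with a median of 0.03.

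**Figure D4:**
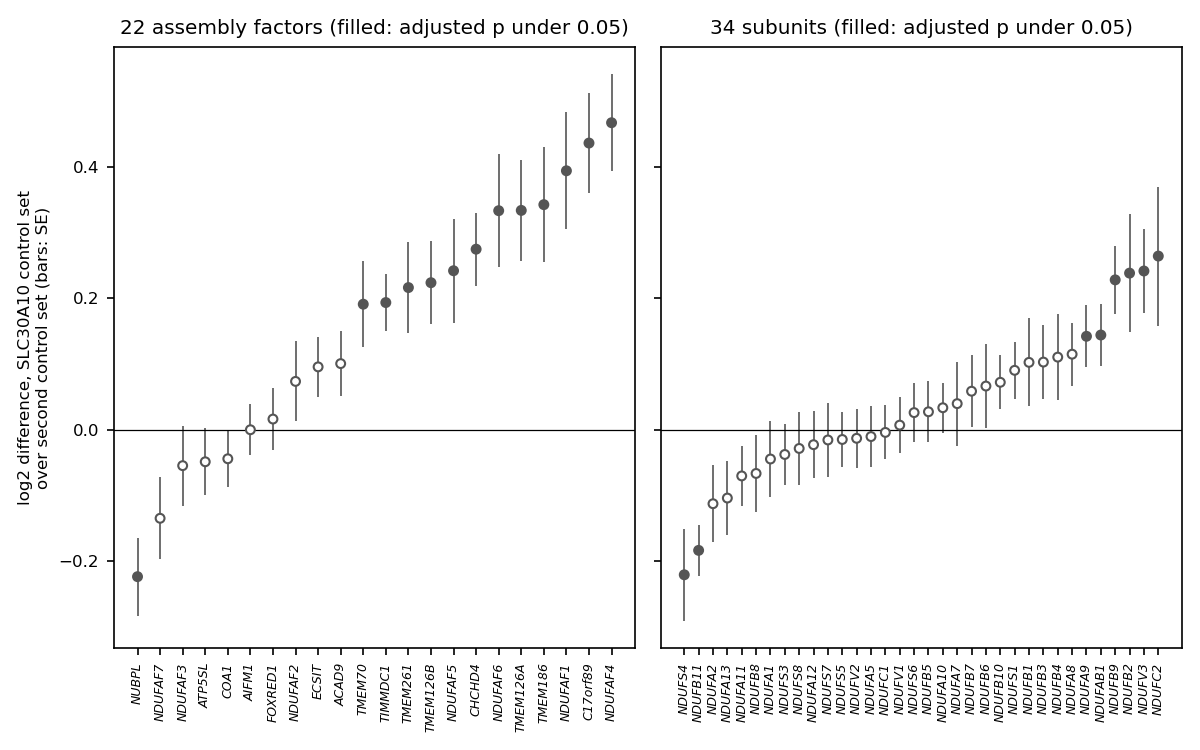
Log2 difference between the SLC30A10 control set and the second control set (vertical axis, bars are SE) for 22 assembly factors (left) and 34 subunits (right), each in rising order; filled points have an adjusted p under 0.05. On the left 12 filled points lie above 0 and 1 below, and on the right 6 above and 2 below.

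Of the subunits, NDUFC2 (0.26 ± 0.11), NDUFV3 (0.24 ± 0.06), NDUFB2 (0.24 ± 0.09) and NDUFB9 (0.23 ± 0.05) had the largest differences above 0. NDUFB9 had 137, 137, 152 and 144 CPM in the SLC30A10 control set and 121, 122, 117 and 127 CPM in the second, with no overlap. NDUFS4, an N module subunit, was lower, with -0.22 ± 0.07, and so was NDUFB11, with -0.18 ± 0.04. The count fell from 12 to 7 without SLC30A10 control replicate 3, where NDUFA2 was newly called (-0.17, adjusted p = 0.0234 by edgeR's test). The calls of NDUFA9, NDUFAB1, NDUFAF5, NDUFB2, NDUFC2 and NDUFS4 were lost without that library (adjusted p-values of 0.051 to 0.180 by edgeR's test). Those of NDUFAF1, NDUFAF4, NDUFAF6, NDUFB9, NDUFV3 and NDUFB11 held with any 1 of the 8 libraries left out. NDUFAF5 also lost its call without second control replicate 2, NDUFB2 without second control replicate 2 or 3 or SLC30A10 control replicate 1, NDUFS4 without second control replicate 1 or 3, and NDUFC2 without 4 further libraries and by DESeq2 (adjusted p = 0.107). NDUFAF1 is a gene whose call in the SLC30A10 knockout rests on the control set used: its 4 knockout libraries lay below the SLC30A10 control set and above the second control set (13.0, 12.2, 12.6 and 13.5 CPM).

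Summed over a module, the libraries of each knockout and its control overlapped, except for the Q module in the SLC30A10 knockout. The 35 tested subunits summed to 2860 ± 93.3 CPM in the SLC30A10 controls and 2980 ± 53.6 CPM in the knockout, and to 2804 ± 81.9 CPM and 2746 ± 87.2 CPM in the second control set and knockout (SD, n = 4). The Q module rose from 541 ± 19.6 CPM to 621 ± 15.9 CPM in the SLC30A10 knockout. Without NDUFA5 its 5 other genes summed to 452 ± 17.5 CPM in the controls and 442 ± 18.95 CPM in the knockout, with overlapping libraries. The N module summed to 766 ± 16.8 CPM and 772 ± 8.97 CPM, and the ND4 module to 482 ± 17.5 CPM and 482 ± 6.45 CPM, with overlapping libraries although genes within each rose and fell. The named assembly factors summed to 195 ± 8.40 CPM and 199.7 ± 5.20 CPM in the SLC30A10 controls and knockout, and to 175 ± 2.76 CPM and 171 ± 6.85 CPM in the second control set and knockout.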

How the data were processed

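Poly-A RNA of 16 HAP1 libraries was read paired-end. Per the submitters' processing notes, HISAT2, featureCounts and DESeq2 were used with hg38/GRCh38; versions, annotation, strand and multi-mapping settings are not given in the sources used here. The authors deposited whole-number counts per gene symbol and a normalized signal, which equals the counts times 1 constant per library and served as an alternative scaling.

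The counts were tested with edgeR 4.0.16 in R 4.3.3. The expression filter (minimum count 10, minimum total 15) left 15569 genes. TMM scaling, 1 mean for each of 4 groups and quasi-likelihood F tests over all 16 libraries were used, with Benjamini-Hochberg adjustment over all tested genes and a threshold of 0.05. CPM are counts per 1000000 of the TMM-scaled library size, given as mean ± SD; log2 fold changes have SEs. DESeq2 1.42.0 was an alternative, beside other scalings, filters, a stricter threshold, a replicate block, pooled controls and leaving out each library. The scripts were tested on simulated data. Gene order and promoters come from RefSeq (GRCh38.p14), which placed 14106 tested genes and all 45 members; exons come from GENCODE. The naming rule took up to 12 called members in a knockout and up to 8 in another comparison, the highest per length in each module, and called companions. The text names every called member, and those beyond the rule, like other genes, were chosen after their values were seen. Members and gene lists were chosen with earlier results of these data known. The gene deleted in the second knockout and the values of 1 member are not reported here.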

Additional observations from a re-analysis of the deposited data

Results flagged for a closer look

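Within groups of 4 libraries, a single library lay far from the other 3, by its gap as a share of the group's range, in 8 of 168 groups, and chance alone gives about 8.4. In the SLC30A10 control set replicate 3 was the highest for NDUFA13 (a gap of 0.8727 of the range), NDUFB7 (0.8772; 81.0 CPM against a mean of 66.9 in the others) and NDUFC1 (0.8835), and replicate 4 for NDUFAF2 (0.914). In the SLC30A10 knockout replicate 2 was the highest for NDUFAF2 (0.8805) and the lowest for NDUFS7 (0.8334). In the second knockout replicate 3 was the highest for NDUFB2 (0.8829), and in the second control set replicate 2 was the lowest for NDUFA5 (0.8716).

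The knockout effects differed by edgeR's test of the difference for 11 genes. As log2 differences, SLC30A10 knockout effect minus second knockout effect, these were NDUFA5 at 1.14, NDUFB11 at 0.49, NDUFA1 at 0.39, NDUFA11 at 0.25, NDUFA2 at 0.23, NDUFS5 at 0.23, NDUFS3 at 0.20, NDUFV1 at 0.20, NDUFA10 at -0.21, NDUFB1 at -0.26 and NDUFS1 at -0.30.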

How the results depend on the processing

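For the SLC30A10 knockout the 18 called genes became 11 at an adjusted p under 0.01, and with 1 library left out 12 to 15 were called. The difference of the effects gave 7 in place of 11 at an adjusted p under 0.01 and 9 to 12 with 1 library left out. Between the control sets 6 in place of 12 passed at an adjusted p under 0.01, and 7 to 13 with 1 library left out. For the second knockout, in place of 0, 1 gene was called with no filter on low counts, 1 from only the 8 libraries compared, 11 against both control sets pooled and 0 to 2 with 1 library left out. The median log2 fold change in the SLC30A10 knockout moved from 0.00 to 0.06 against pooled controls, and to between -0.02 and 0.06 with 1 library left out. Over all genes, the second knockout's 2132 calls became 1229 at an adjusted p under 0.01 and 5341 against pooled controls. Against pooled controls PPARGC1B (0.085) and PPRC1 (0.137) changed sign in the SLC30A10 knockout. Of the alternatives for single named genes, 918 kept the direction and the call, 122 kept the direction and lost the call, and 2 changed sign. The cause of these shifts was not tested. With the replicate number as a block, 17, 2, 12 and 12 genes were called in the SLC30A10 knockout, the second knockout, the difference and the control sets. The block ended the call of NDUFC1 (adjusted p = 0.0509) and called NDUFAF4 (0.0488) and NDUFS5 (0.0420) in the second knockout. Same-numbered libraries of knockout and control did not deviate together (mean correlation -0.03 for the SLC30A10 and 0.05 for the second knockout). No pairing by number was thus seen, although such correlations cannot show that the libraries were unpaired. In simulated counts for the SLC30A10 comparison, 47 of 98 changes of 1.2-fold and 93 of 98 of 2-fold were recovered. There, 15226 tested genes had no change, whereas in the data 41.4% of all genes were called. The simulated shares therefore do not carry over to the comparison itself.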
